A study of Mus musculus with 10 samples.

Results

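The 8 genes described here form the core of the Rb pathway, the switch that governs entry into S phase. They are the pocket protein genes Rb1, Rbl1 and Rbl2, the D cyclin genes Ccnd1, Ccnd2 and Ccnd3, and the kinase genes Cdk4 and Cdk6. Each was taken from the array row whose only annotated gene is that member, 8 of 14807 named genes on an array of 23238 transcript clusters (1 row per gene model). Every member had exactly 1 such row, and in no sample did a member lie below the first quartile of its array.

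In a resting cell, pocket proteins hold E2F transcription factors in check and keep the genes of DNA replication off. Growth factor signals raise a D cyclin, which binds Cdk4 or Cdk6, and the active kinase phosphorylates the pocket proteins and releases E2F. Inhibitors of the Ink4 type (such as Cdkn2a) block Cdk4 and Cdk6, and without Rb1 that control is largely bypassed. In the developing brain the D cyclins have overlapping but distinct domains, and Ccnd1 and Ccnd2 are both used by neural progenitors.

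All 10 samples came from mice homozygous for floxed alleles of p53 and Rb (p53/Rb Flox-Hom) on a mixed background of C57, FVB and mainly 129 Ola, with no age in the labels; the recipients of the grafts are not described. The groups were PNET (primitive neuroectodermal tumour, n = 3, replicates 1, 2 and 3) and AdCre-induced oligo-astrocytoma (n = 1, replicate 44), both from Cre adenovirus put into the brain ventricle, and grafted oligo-astrocytoma (n = 3, replicates 4, 5 and 6), from spheres given AdCre in culture and then grafted. The cultures were AdCre spheres (n = 2) and an AdGFP sphere (n = 1), neurospheres of the subventricular zone at passage 3. The AdGFP sphere is the only sample without Cre, so its floxed genes should be intact, and it is a single culture. Cre acts only in cells that the virus entered, and a dissected tumour can also hold host cells. The labels do not say whether replicates of a group came from separate animals or cultures, so p-values measure only the spread between these samples. The number of arrays limits the precision.

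The labels were checked against marker lists. Photoreceptor and pineal markers averaged between 9.93 and 10.74 on the log2 scale in the PNET tumours, 4.11 in the AdCre-induced oligo-astrocytoma, between 4.08 and 4.19 in the grafts, between 4.55 and 4.80 in the AdCre spheres and 4.47 in the AdGFP sphere. Oligodendrocyte precursor markers averaged between 5.69 and 5.77 in the PNET tumours, 9.70 in the AdCre-induced oligo-astrocytoma, between 9.51 and 9.85 in the grafts, 9.05 and 7.93 in AdCre spheres 1 and 2 and 8.05 in the AdGFP sphere, so the cultures carried them too. The AdCre spheres also differed from each other in astrocyte markers, at 9.94 in sphere 1 and 8.17 in sphere 2. Microglial markers averaged between 6.25 and 7.34 in the PNET tumours, 8.79 in the AdCre-induced oligo-astrocytoma, between 6.88 and 8.10 in the grafts, between 4.54 and 4.69 in the AdCre spheres and 4.55 in the AdGFP sphere. In bulk samples fewer cells of a type and less RNA per cell cannot be told apart. Where oligo-astrocytomas are given as 1 group (n = 4), both derivations are pooled. Differences are on the log2 scale with their standard error (SE), and a gene is called where the p of limma, a linear model fitted to all transcript clusters, is under 0.05 after Benjamini-Hochberg adjustment over all of them.

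The promoters of Rbl1 and Cdk4 are shown because Rbl1 is a known E2F target, while Cdk4 was called in 2 of the comparisons below and is a known target of MYC in human cells. RefSeq windows of 300 bases (250 before the start of the gene and 50 after) were found for 5 of the 8 members. Capitals mark the searched motif, in Rbl1 an E2F motif and in Cdk4 the E-box CACGTG. The Rbl1 window is chr2:157204485-157204784 on the minus strand and the Cdk4 window chr10:127063285-127063584 on the plus strand, both in GRCm38.p6.
Rbl1: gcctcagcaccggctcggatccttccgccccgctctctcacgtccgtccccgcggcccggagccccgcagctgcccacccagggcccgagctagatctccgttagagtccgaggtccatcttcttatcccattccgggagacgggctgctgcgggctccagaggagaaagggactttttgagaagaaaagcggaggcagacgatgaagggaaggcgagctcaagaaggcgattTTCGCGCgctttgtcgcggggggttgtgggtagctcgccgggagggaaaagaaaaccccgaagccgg
Cdk4: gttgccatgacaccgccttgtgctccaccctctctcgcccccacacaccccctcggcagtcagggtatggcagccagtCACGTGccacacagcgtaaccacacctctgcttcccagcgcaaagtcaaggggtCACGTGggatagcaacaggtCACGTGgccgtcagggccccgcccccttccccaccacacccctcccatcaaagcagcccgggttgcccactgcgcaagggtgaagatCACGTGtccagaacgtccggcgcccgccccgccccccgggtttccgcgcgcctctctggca
The E2F search took TTCCCGC or TTGGCGC or TTCGCGC or TTGCCGC on both strands, and 9.57% of 32851 windows held at least 1 match. The E-box occurred in 7.15% of windows, and 8 windows (0.0244%) held 4 or more, as Cdk4 does with 4, a count set after seeing that window. The Cdk6 window held 1 E-box, and the Rbl2 window held 1 match to the CHR motif TTTGAA, which was found in 17.9% of windows. A match describes letters and is not evidence of a bound site.

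**Figure D1:**
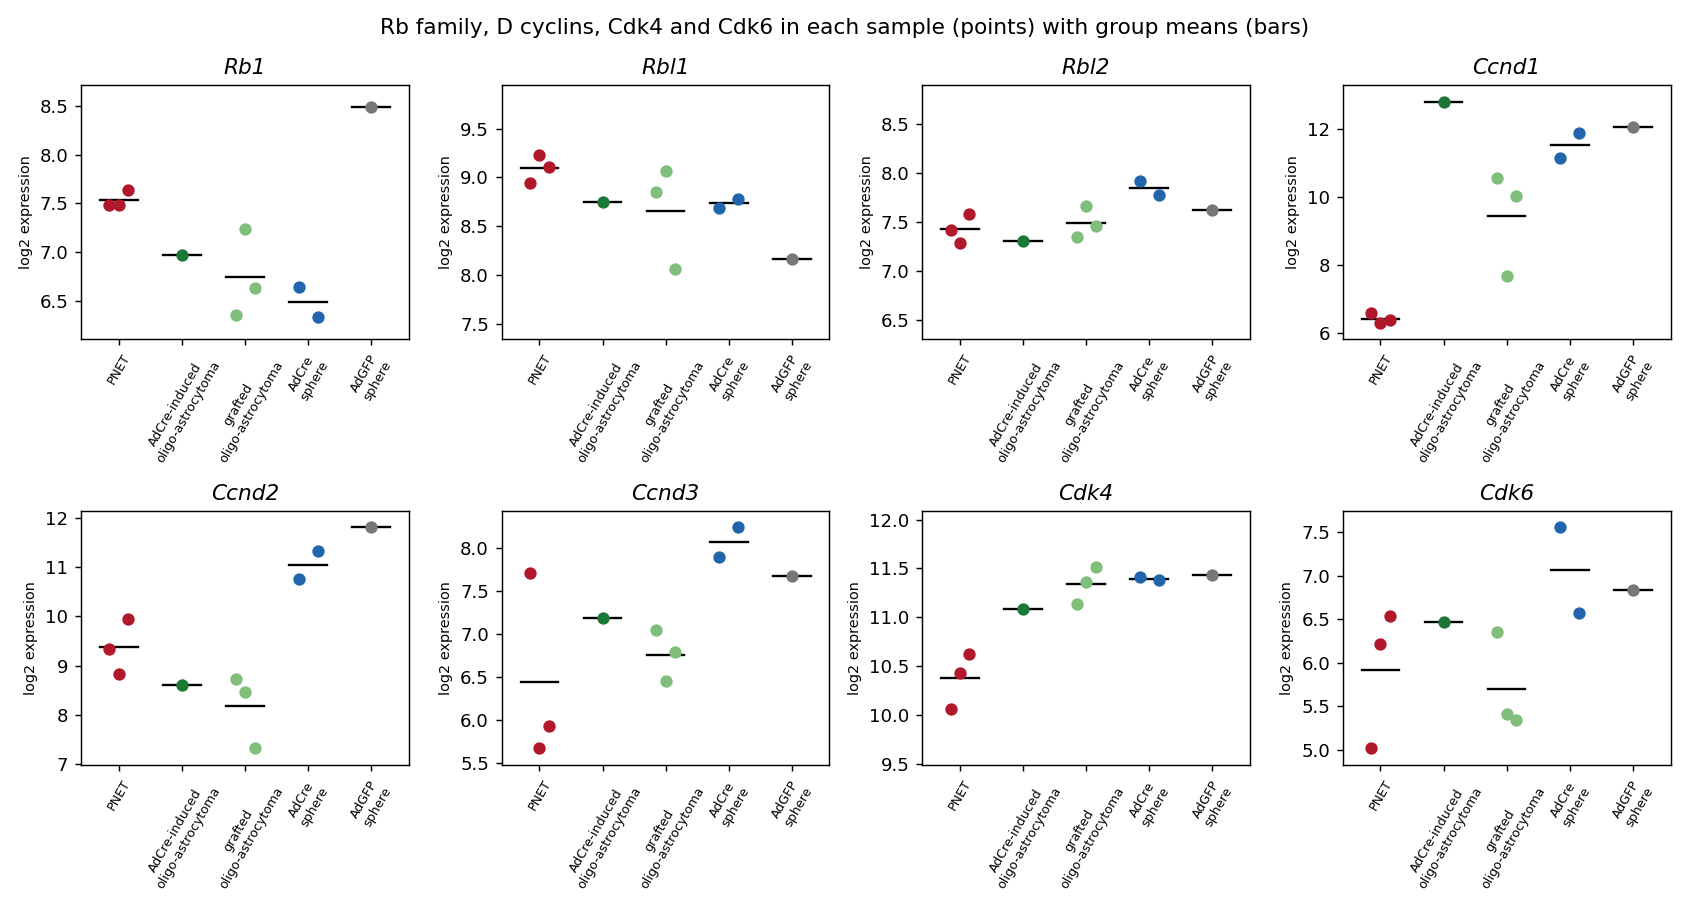
Log2 level of each of the 8 members (y axis) in every sample, by group on the x axis, with a bar at the group mean. Ccnd1 has the widest spread, between 6.30 in PNET 2 and 12.81 in the AdCre-induced oligo-astrocytoma.

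Rb1 encodes the retinoblastoma protein, and it is the floxed gene. The row averages probes over the whole transcript, so it does not report on the deleted exon alone, and a shortened transcript can still be read. Rb1 had log2 levels of 7.48, 7.48 and 7.64 in the 3 PNET tumours, 6.97 in the AdCre-induced oligo-astrocytoma, 6.36, 7.24 and 6.63 in the grafts, 6.65 and 6.34 in the AdCre spheres and 8.49 in the AdGFP sphere. The AdGFP sphere was the highest of all 10 samples, and the 2 AdCre spheres lay near the lowest tumours.

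Between AdCre spheres and the AdGFP sphere, Rb1 differed by -1.99 ± 0.35 (SE), 3.98-fold lower in the AdCre spheres (limma, unadjusted p = 0.0002796, adjusted p = 0.247). With 1 AdGFP sample, whose spread is assumed to match the other groups, no member was called. In that comparison 0.0172% of all transcript clusters were called (4 clusters, against 1152 at an unadjusted p under 0.05), and 7 of 8 members did not overlap between the groups, against 68.2% of clusters. In the PNET Rb1 was 0.73 ± 0.22 above the pooled oligo-astrocytomas (limma, adjusted p = 0.0595), a difference that does not pass the threshold of 0.05, although the samples do not overlap; Rb1 was called after quantile normalization (0.87, adjusted p = 0.0252), median centring (0.79, 0.0355), with dim clusters left out (0.0417) or without graft 5 (0.0304). In the PNET it was 1.04 ± 0.26 above the AdCre spheres (limma, adjusted p = 0.0130), the only call upward among the members, and it was lost without AdCre sphere 2 (adjusted p = 0.0899). Among group means the order was AdGFP sphere, PNET, AdCre-induced oligo-astrocytoma, grafted oligo-astrocytoma and AdCre sphere; the last 3 overlap their neighbours in that order.

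Rbl1 encodes p107, a pocket protein that pairs mainly with repressive E2Fs and is itself switched on by E2F. Its log2 levels were 8.95, 9.23 and 9.11 in the PNET tumours, 8.75 in the AdCre-induced oligo-astrocytoma, 8.85, 9.07 and 8.06 in the grafts, 8.69 and 8.78 in the AdCre spheres and 8.17 in the AdGFP sphere. It passed no test: the difference was 0.41 ± 0.23 between PNET and oligo-astrocytomas (limma, adjusted p = 0.321), and 0.36 ± 0.28 between PNET and AdCre spheres (limma, adjusted p = 0.346), which became 0.99 after quantile normalization (adjusted p = 0.0261). Graft 6 was the lowest of all 10 samples. The group means ran from PNET through AdCre-induced oligo-astrocytoma, AdCre sphere and graft to AdGFP sphere, and only the PNET did not overlap the next group. Rbl2 encodes p130, the pocket protein typical of resting cells. It had log2 levels of 7.42, 7.28 and 7.58 in the PNET tumours, 7.30 in the AdCre-induced oligo-astrocytoma, 7.35, 7.66 and 7.46 in the grafts, 7.92 and 7.78 in the AdCre spheres and 7.62 in the AdGFP sphere. Its whole range over 10 samples was the narrowest of the members, and PNET and oligo-astrocytomas differed by -0.02 ± 0.16 (limma, adjusted p = 0.968). Against AdCre spheres it differed by -0.41 ± 0.18 in oligo-astrocytomas (limma, adjusted p = 0.108) and by -0.42 ± 0.19 in PNET (limma, adjusted p = 0.106). The AdCre spheres had the highest group mean and did not overlap the AdGFP sphere next to them; the AdGFP sphere, grafts, PNET and AdCre-induced tumour followed, each overlapping the next.

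Ccnd1 (cyclin D1) was the member that varied most. Its log2 levels were 6.56, 6.30 and 6.38 in the PNET tumours, 12.81 in the AdCre-induced oligo-astrocytoma, 10.57, 7.67 and 10.03 in the grafts, 11.14 and 11.90 in the AdCre spheres and 12.07 in the AdGFP sphere. The 3 PNET lay together below every other sample, while the 4 oligo-astrocytomas were spread widely, with graft 5 the lowest. In the PNET Ccnd1 averaged 6.41 ± 0.14 (SD, n = 3), against 10.27 ± 2.11 in oligo-astrocytomas (n = 4), a difference of -3.86 ± 0.94 (SE; 14.5-fold lower; limma, adjusted p = 0.0269). Against AdCre spheres the PNET were lower by a difference of -5.10 ± 1.12 (34.4-fold; limma, adjusted p = 0.00689). The oligo-astrocytomas and the AdCre spheres differed by -1.25 ± 1.06 (limma, adjusted p = 0.398). The order of group means was AdCre-induced oligo-astrocytoma, AdGFP sphere, AdCre sphere, grafted oligo-astrocytoma and PNET. No neighbours in it overlap, but the AdCre-induced tumour and the AdGFP sphere are single samples, which cannot overlap.

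The PNET call of Ccnd1 against oligo-astrocytomas was lost in 5 of 7 leave-outs, in which the difference stayed between -3.94 and -3.76. It was -3.93, -3.80 and -3.84 without PNET 1, 2 or 3 (adjusted p = 0.0602, 0.0837 and 0.0853), -3.76 without graft 4 (0.0660) and -3.94 without graft 6 (0.0515). The call was kept without the AdCre-induced tumour, at -3.01 (adjusted p = 0.0218), and without graft 5, at -4.72 (adjusted p = 0.00321). The PNET call of Ccnd1 against AdCre spheres held with every sample left out in turn. In the AdCre-induced oligo-astrocytoma Ccnd1 was 3.39 ± 0.92 above the mean of the grafts (limma, unadjusted p = 0.00588, adjusted p = 0.320). No member was called there, and 0.301% of clusters were (70 clusters, against 1755 at an unadjusted p under 0.05); 5 of 8 members did not overlap, against 52.8% of clusters.

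Genes beside Ccnd1 were read in the same tumours. Earlier results of these data had already shown 1 oligo-astrocytoma to differ over distal chromosome 7. In the AdCre-induced oligo-astrocytoma Ccnd1, on chromosome 7, was 2.78 above the median of the other oligo-astrocytomas, and its 8 measured neighbours (up to 5 named genes with a row on each side, of which 1 side has 3) were all higher, by a median of 1.55. Of these, Tpcn2 was 3.38 higher, Ano1 2.41, Fadd 2.28 and Cttn 2.05, while Fgf3 was 0.04 higher. Graft 5 had Ccnd1 at -2.90 from the median of the others, and 7 of its 8 neighbours were below theirs, with a median of -0.55. For each graft the others include the AdCre-induced tumour. Where that tumour is highest, the median is the higher of the other grafts, which favours negative values in a graft. Graft 4 had Ccnd1 0.54 above the median of the others, with 3 of 8 neighbours higher and a median of -0.06; the nearest neighbours on one side, Fgf15 and Fgf3, were 4.07 and 1.19 higher there. DNA copy number was not measured. For Rb1 on chromosome 14, the AdCre-induced tumour had 9 of 10 neighbours higher, by a median of 0.48. It also had 8 of 10 higher at Rbl1 (median 0.22) and 5 of 5 at Cdk6 (0.25), 6 of 10 at Ccnd2, 5 of 10 at Cdk4, 4 of 10 at Ccnd3 and 1 of 10 at Rbl2. With up to 10 genes on each side it had 16 of 20 higher at Rb1, 13 of 20 at Rbl1 (median 0.18) and 9 of 10 at Cdk6. The share of all named genes that were higher in this tumour was not taken, so these counts have no baseline.

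**Figure D2:**
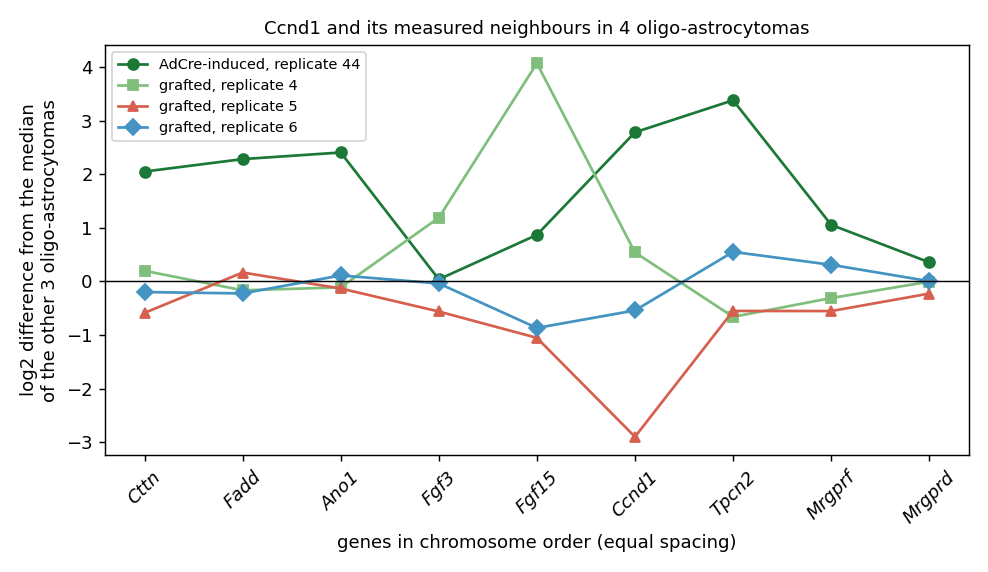
Log2 difference (y axis) of Ccnd1 and its 8 measured neighbours, in chromosome order with equal spacing (x axis), from the median of the other 3 oligo-astrocytomas, 1 line per tumour. The AdCre-induced tumour lies above 0 at all 8 neighbours, with a median of 1.55, and graft 4 has the highest single value, 4.07 at Fgf15.

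Ccnd2 (cyclin D2) ran in another order. Its log2 levels were 9.35, 8.83 and 9.94 in the PNET tumours, 8.62 in the AdCre-induced oligo-astrocytoma, 8.73, 8.46 and 7.32 in the grafts, 10.76 and 11.34 in the AdCre spheres and 11.81 in the AdGFP sphere. All cultures were above all tumours, and the PNET above all oligo-astrocytomas. The order of group means was AdGFP sphere, AdCre sphere, PNET, AdCre-induced tumour and grafts, and only the last 2 overlap. In the oligo-astrocytomas Ccnd2 averaged 8.28 ± 0.65 (SD, n = 4), against 11.05 ± 0.41 in AdCre spheres (n = 2), a difference of -2.77 ± 0.43 (SE; 6.81-fold lower; limma, adjusted p = 0.00193). The call held with each oligo-astrocytoma or sphere left out. In the PNET Ccnd2 was lower than in AdCre spheres by a difference of -1.68 ± 0.46 (limma, adjusted p = 0.0183), a call lost without PNET 2 (adjusted p = 0.0574) or AdCre sphere 2 (0.118) and under quantile normalization (0.0675). PNET and oligo-astrocytomas differed by 1.09 ± 0.38 (limma, adjusted p = 0.101).

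Within an array, Ccnd1 minus Ccnd2 compares changes and not amounts, since the 2 rows use different probes. The difference was -2.78, -2.53 and -3.56 in the PNET tumours, 4.20 in the AdCre-induced oligo-astrocytoma, 1.84, -0.79 and 2.71 in the grafts, 0.38 and 0.56 in the AdCre spheres and 0.26 in the AdGFP sphere. The 3 PNET tumours were below all other samples, the 3 cultures lay close together, and the oligo-astrocytomas were spread from below to above the cultures.

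**Figure D3:**
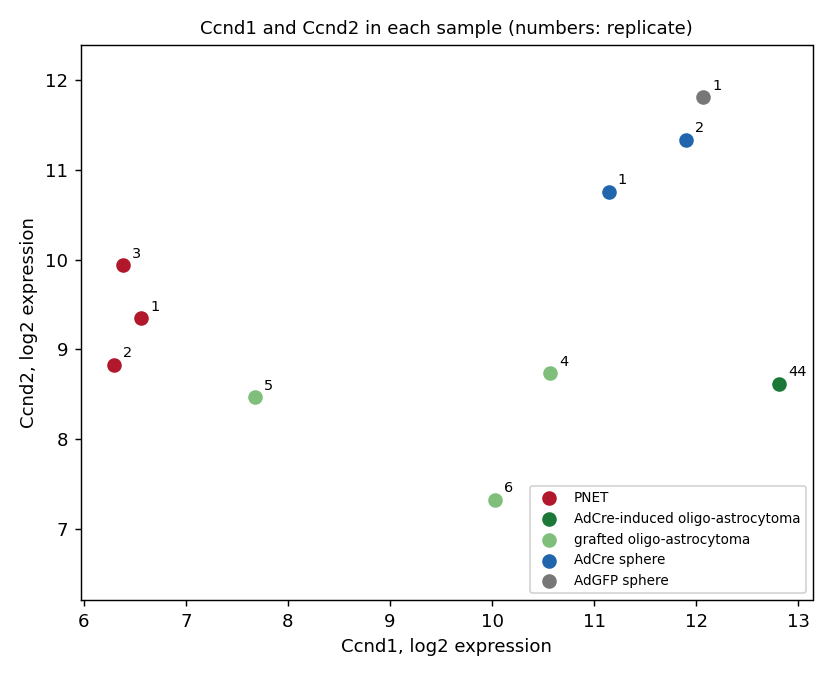
Log2 level of Ccnd1 (x axis) and of Ccnd2 (y axis) in each of the 10 samples, coloured by group and marked with the replicate number. The 3 PNET tumours have Ccnd1 between 6.30 and 6.56 and Ccnd2 between 8.83 and 9.94.

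Ccnd3 (cyclin D3) varied within the PNET. Its log2 levels were 7.71, 5.67 and 5.94 in the PNET tumours, 7.18 in the AdCre-induced oligo-astrocytoma, 7.04, 6.45 and 6.79 in the grafts, 7.89 and 8.24 in the AdCre spheres and 7.67 in the AdGFP sphere. PNET 1 stood with the cultures, while PNET 2 and 3 were the lowest of all samples and the only ones below their array median. The order of group means was AdCre sphere, AdGFP sphere, AdCre-induced tumour, grafts and PNET, and only the grafts and PNET overlap. The AdGFP sphere and the AdCre-induced tumour are single samples, which cannot overlap. A second row shared with the pseudogene Ccnd3-ps was not used. PNET and oligo-astrocytomas differed by -0.43 ± 0.44 (limma, adjusted p = 0.627), and by -1.06 (adjusted p = 0.0257) without PNET 1. The PNET lay -1.63 ± 0.53 from the AdCre spheres (limma, adjusted p = 0.0371), a call lost without PNET 2, PNET 3 or either sphere, under quantile normalization (adjusted p = 0.158) and when only these groups were fitted (-1.63, adjusted p = 0.0880). Oligo-astrocytomas and AdCre spheres differed by -1.20 ± 0.50 (limma, adjusted p = 0.0947), a difference called when only these groups were fitted (adjusted p = 0.0129).

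Cdk4 and Cdk6 are the catalytic partners of the D cyclins. Cdk4 had log2 levels of 10.07, 10.43 and 10.63 in the PNET tumours, 11.08 in the AdCre-induced oligo-astrocytoma, 11.13, 11.36 and 11.51 in the grafts, 11.41 and 11.38 in the AdCre spheres and 11.43 in the AdGFP sphere. The 3 PNET were below all other samples, which kept within a narrow band. The order of group means was AdGFP sphere, AdCre sphere, grafts, AdCre-induced tumour and PNET, and only the AdCre spheres and grafts overlap. In the PNET Cdk4 averaged 10.38 ± 0.28 (SD, n = 3), against 11.27 ± 0.20 in oligo-astrocytomas (n = 4), a difference of -0.90 ± 0.18 (SE; limma, adjusted p = 0.0126). The call held with each sample left out in turn, and was lost against the AdCre-induced tumour alone (-0.71, adjusted p = 0.216). The PNET lay -1.02 ± 0.22 from the AdCre spheres (2.03-fold lower; limma, adjusted p = 0.00640), a call lost under quantile normalization (adjusted p = 0.0762). Oligo-astrocytomas and AdCre spheres differed by -0.12 ± 0.21 (limma, adjusted p = 0.686).

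Cdk6, the other kinase, was less even. Its log2 levels were 5.02, 6.21 and 6.53 in the PNET tumours, 6.46 in the AdCre-induced oligo-astrocytoma, 6.35, 5.40 and 5.35 in the grafts, 7.55 and 6.57 in the AdCre spheres and 6.84 in the AdGFP sphere. The 3 cultures were above all tumours, and no difference passed the test (PNET against oligo-astrocytomas 0.03 ± 0.44, limma, adjusted p = 0.982). Against AdCre spheres Cdk6 differed by -1.17 ± 0.50 in oligo-astrocytomas (limma, adjusted p = 0.103) and by -1.14 ± 0.53 in PNET (limma, adjusted p = 0.122). Cdk6 lay below the array median in 3 samples, PNET 1 and grafts 5 and 6. The order of its group means was AdCre sphere, AdGFP sphere, AdCre-induced tumour, PNET and grafts. All neighbours in it overlap except the AdGFP sphere and the AdCre-induced tumour, which are single samples and cannot overlap.

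**Figure D4:**
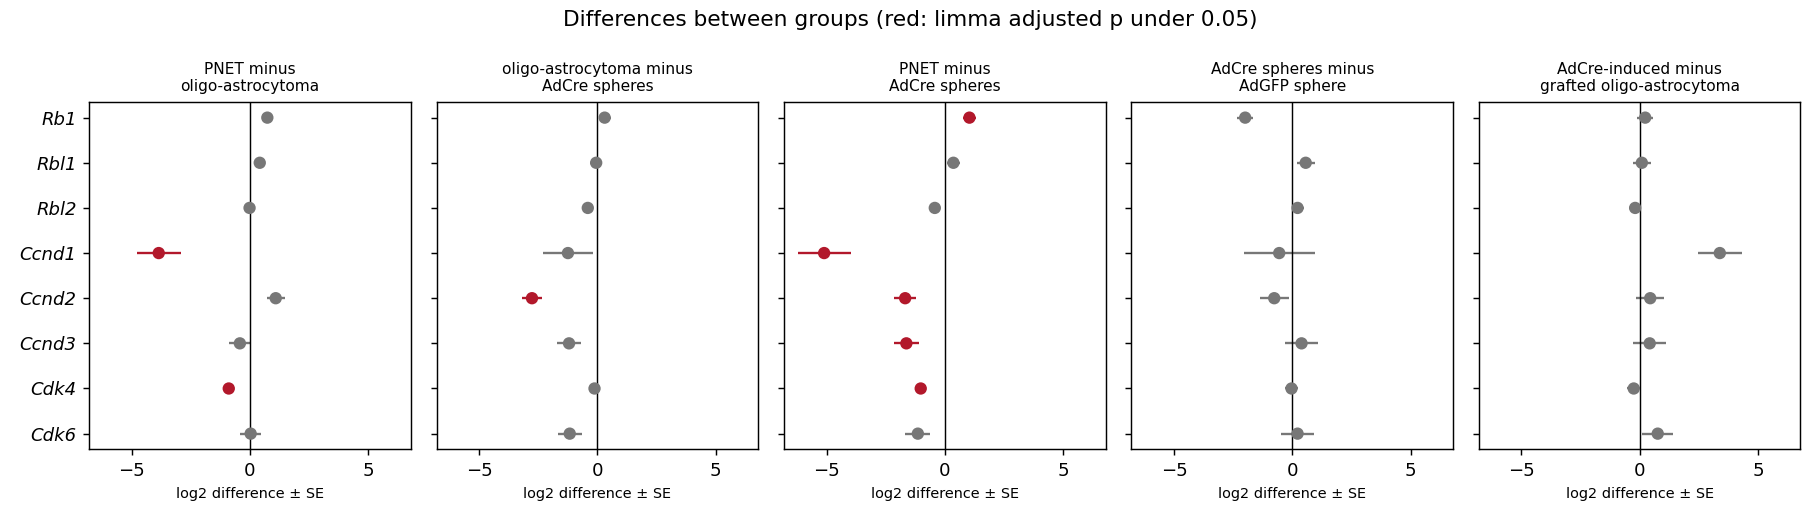
Log2 difference with SE (x axis) of each member (rows) in the 5 comparisons (panels), named in each panel as the first group minus the second; red marks adjusted p under 0.05. Ccnd1 in PNET minus AdCre spheres is farthest from 0, at -5.10.

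Over the 8 members, PNET against oligo-astrocytomas gave 0 higher and 2 lower calls, against 5.53% higher and 7.20% lower (12.7% in all) of all transcript clusters, and 4 members did not overlap, against 23.4%. Oligo-astrocytomas against AdCre spheres gave 1 lower, against 10.1% of clusters higher and 22.8% lower (32.8% in all), and 4 members did not overlap, against 54.1%, shares near or below those of the array. PNET against AdCre spheres gave 1 higher and 4 lower, against 11.0% higher and 25.9% lower (37.0% in all), and all 8 members did not overlap, against 61.5%. After quantile normalization the member calls there were 2 higher and 1 lower. The last 2 comparisons share the AdCre spheres. All named genes also shifted there, by a median of -0.35 in oligo-astrocytomas and -0.36 in PNET against AdCre spheres, which quantile normalization reduced to -0.21 and -0.18. The split of calls moved with it: for oligo-astrocytomas 2341 higher and 5291 lower, and 2604 and 2870 after quantile normalization; for PNET 2564 and 6026, and 3267 and 3433 after it. Relative to the median shift, Ccnd2 was still lower by 2.41 in oligo-astrocytomas and Ccnd1 by 4.74 in PNET.

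Each member was set beside the other genes most like it, by Pearson correlation over the 10 samples. These samples form separate groups, which every such value reflects, and the values are given as a description. Ccnd1 was most like Sdc3 (r = 0.984) and Shc4 (0.971), Ccnd2 like Bex2 (0.990) and Klf10 (0.986), and Ccnd3 like Rhoc and Pdia6 (0.962 each). Cdk4 was most like Smyd2 and Trim27 (0.972 each), Cdk6 like Acer1 (0.963) and Itgb5 (0.941). Rb1 was most like Pqlc3 (0.963) and Duoxa2 (0.885), Rbl1 like Ska2 (0.935) and Zdhhc15 (0.931), and Rbl2 like Mmaa (0.968) and Med26 (0.944). Acer1 lay between 3.92 and 4.72 and Duoxa2 between 4.47 and 4.98. Both are dim, as the first quartiles of the arrays lay between 4.22 and 4.44.

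The rest of the pathway was followed in 7 lists of 93 genes, of which 80 were measured. Between PNET and oligo-astrocytomas, S-phase genes under E2F control gave 9 higher and 0 lower of 21, with a median of 0.62, where all named genes had a median of -0.01 with 7.06% higher and 9.26% lower. E2f and Dp factors gave 4 higher and 0 lower of 8 (median 0.79). Cyclins E, A and B with Cdk1 and Cdk2 gave 2 higher of 7 (median 0.79), Cdk inhibitors 1 higher of 6 (0.40), pocket protein partners with MuvB 2 higher of 8 (0.11) and the genes of Cdk4/6 assembly and D cyclin turnover 1 lower of 10 (0.03). Signals upstream of the D cyclins gave 1 higher and 7 lower of 20 (median -0.81). That list holds receptors such as Egfr and factors such as Myc, but also feedback genes such as Spry4, Axin2 and Ptch1. A lower call in it is therefore not a measure of signal strength. Pdgfra is also among the oligodendrocyte precursor markers. The S-phase count was 4 without PNET 3, 6 without PNET 1 or graft 6, and 3 against the AdCre-induced tumour alone, where E2f and Dp factors had 1 and upstream signals 0 higher and 4 lower.

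Among the named genes, E2f1, an activating E2F, had log2 levels of 8.09, 8.68 and 8.90 in the PNET tumours, 6.76 in the AdCre-induced oligo-astrocytoma, 6.68, 6.87 and 6.52 in the grafts, 7.73 and 8.46 in the AdCre spheres and 7.51 in the AdGFP sphere. It was 1.85 ± 0.24 higher in PNET than in oligo-astrocytomas (limma, adjusted p = 0.00142). Cdc6 and Cdt1, which load the replicative helicase, were higher by 1.68 ± 0.19 (limma, adjusted p = 0.000676) and 1.76 ± 0.20 (limma, adjusted p = 0.000725). Slbp, which binds histone mRNA, was 2.81 ± 0.31 higher, but lay at 3.03 in the oligo-astrocytomas, below the first quartile of the arrays. E2f6, a repressive E2F, was 1.53 ± 0.29 higher (limma, adjusted p = 0.00840), and Arid4a, a pocket protein partner, 1.54 ± 0.23 higher (limma, adjusted p = 0.00263); against the AdCre-induced tumour alone neither passed (adjusted p = 0.207 and 0.0761). Ccne1 and Ccne2, the cyclins of Cdk2, were higher by 1.18 ± 0.28 and 2.11 ± 0.56, calls that were lost without PNET 2 or PNET 3 for Ccne1 and in 5 of 7 leave-outs for Ccne2. Between PNET and oligo-astrocytomas, 4 of 8 neuronal markers were higher, and 6 of 6 oligodendrocyte precursor, 3 of 5 neural stem and progenitor and 2 of 5 astrocyte markers were lower. Mitosis markers averaged between 8.57 and 8.84 in the PNET tumours, 8.27 in the AdCre-induced oligo-astrocytoma and between 7.89 and 8.71 in the grafts, with 0 of 9 measured markers called, and the part of all these markers in the differences was not tested.

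Cdkn1a, the p21 inhibitor that p53 induces, was the inhibitor called between PNET and oligo-astrocytomas. Cdkn1a had 8.72, 9.25 and 9.17 in the PNET tumours, 7.18 in the AdCre-induced oligo-astrocytoma, 6.33, 5.56 and 5.19 in the grafts, 8.02 and 8.63 in the AdCre spheres and 10.36 in the AdGFP sphere. It was 2.98 ± 0.43 higher in PNET than in oligo-astrocytomas (limma, adjusted p = 0.00220), and did not pass against the AdCre-induced tumour alone (1.86, adjusted p = 0.0552). Upstream, Pdgfra, a receptor of oligodendrocyte precursors, differed by -6.39 ± 0.26 (limma, adjusted p = 2.693e-06). Myc had 7.79, 8.71 and 8.13 in the PNET tumours, 9.92 in the AdCre-induced oligo-astrocytoma, 10.65, 9.95 and 10.28 in the grafts, 9.23 and 9.10 in the AdCre spheres and 9.78 in the AdGFP sphere. Its PNET difference from oligo-astrocytomas was -1.99 ± 0.26 (limma, adjusted p = 0.00124), and Etv5, an ERK-driven factor, differed by -2.21 ± 0.40.

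Markers of several cell types also differed from the AdCre spheres. In oligo-astrocytomas 10 of 10 microglial, 7 of 8 endothelial and 2 of 6 pericyte markers were higher, and 4 of 5 neural stem and progenitor markers were lower. The oligodendrocyte precursor markers gave 3 higher and 2 lower of 6 there, astrocyte markers 1 higher and 2 lower of 5, and neuronal markers 0 higher and 2 lower of 8. In PNET 6 of 10 microglial, 3 of 8 endothelial, 4 of 6 pericyte and 6 of 6 photoreceptor and pineal markers were higher. Neuronal markers gave 4 higher and 1 lower of 8 in PNET. There 4 of 5 neural stem and progenitor, 5 of 5 astrocyte and 5 of 6 oligodendrocyte precursor markers were lower. The part of all these markers in the differences from cultures was not tested. The inhibitors were lower in the oligo-astrocytomas in 5 of 6 measured genes, among them Cdkn1b (p27; -1.83), Cdkn2b (p15; -2.36) and Cdkn1a (-2.26), where 28.3% of all named genes were lower. The count was 4 without AdCre sphere 1 and 3 without AdCre sphere 2, where Cdkn1a was not called. In PNET 3 of 6 were lower: Cdkn1b (-1.29), Cdkn2b (-2.09) and Cdkn2a (-1.33), against 32.2% of named genes; after quantile normalization 1 of them was called. Upstream signals gave 2 higher and 10 lower of 20 in oligo-astrocytomas and 0 higher and 14 lower in PNET. Of all named genes, 3.19% were called higher in oligo-astrocytomas and 5.43% in PNET. Egfr, the epidermal growth factor receptor, was lower by a difference of -3.82 in oligo-astrocytomas and -5.03 in PNET. E2f5 was lower in both, at -1.61 in oligo-astrocytomas and -2.07 in PNET, and S-phase genes gave 0 higher and 5 lower of 21 in oligo-astrocytomas (median -0.36, the median of all named genes being -0.35) and 4 higher and 2 lower in PNET. Counts fell when an AdCre sphere was left out: for upstream signals in oligo-astrocytomas 1 higher and 4 lower without sphere 1, and 1 higher and 6 lower without sphere 2.

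No list had a call between AdCre spheres and the AdGFP sphere. Cdkn2a had 9.37 and 9.70 in the AdCre spheres, against 7.84 in the AdGFP sphere, a difference of 1.69 ± 0.36 (limma, adjusted p = 0.375). Cre targets both p53 and Rb in these spheres, so their parts in it cannot be told apart. The Cdkn2a row covers the whole gene and does not separate its transcripts. Cdkn1a differed by -2.03 ± 0.69 (limma, adjusted p = 0.763). S-phase genes had a median of 0.11, and all named genes a median of 0.09.

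**Figure D5:**
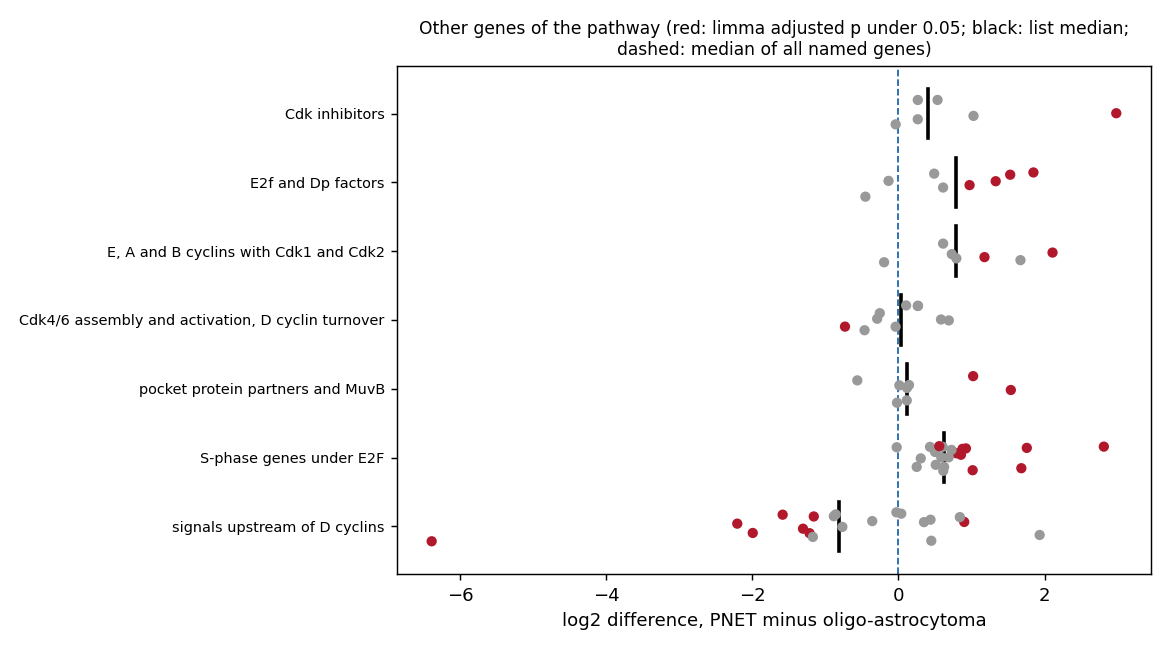
Log2 difference, PNET minus oligo-astrocytoma (x axis), of each measured gene (points) of the 7 lists (rows), red where called, with the list median in black and the median of all named genes dashed. The S-phase list has its median at 0.62 and upstream signals theirs at -0.81.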

How the data were processed

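Mouse exon arrays were hybridised with biotin-labelled total RNA, 1 colour, 10 samples. The deposited values are log2 levels, 1 per transcript cluster, which the authors made with Partek and RMA on build mm8, per the submitters' processing notes; the series text names 2 versions of the array, and tool versions are not given in the sources here. The values were used as deposited. The platform annotation pairs 14939 of 23238 transcript clusters with 1 gene, 989 with several and 7310 with none; 131 genes had more than 1 row, and the row with the highest mean was taken.

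The tests used lmFit and eBayes of limma 3.58.1 (R 4.3.3) on all 10 samples in 4 groups, with both oligo-astrocytoma kinds pooled, or in 5 groups for AdCre-induced against grafted. Tests were two-sided, adjusted by Benjamini-Hochberg over all clusters, with a threshold of 0.05. The procedure was tested on simulated data. The 8 members and the pathway and marker lists were chosen with earlier results of these data known. Named genes were, per list, up to 3 called genes per direction with the largest change and no overlap between groups, or the 2 largest changes where none passed; for each member, the 2 genes most correlated with it; and its nearest measured neighbours, by gene order in RefSeq (GRCm38.p6), since no genome was used. Alternatives covered quantile normalization, median centring, a filter on dim clusters, array weights, eBayes with trend and robust settings, the samples fitted, a replicate block and each sample left out. PNET and AdCre spheres share the numbers 1 and 2, and the AdGFP sphere also has the number 1. A single AdGFP sphere has no deviation from its group mean, so its pairing with AdCre sphere 1 was not examined. The deviations of same-numbered PNET and AdCre sphere samples from their group means correlated at -0.03 and -0.06. With only 2 AdCre spheres their deviations mirror each other, so these values cannot show whether same-numbered samples are paired. Promoter motifs were searched with Python 3.11.15.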

Additional observations from a re-analysis of the deposited data

Results flagged for a closer look

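Ccnd1 and Cdk4 changed differently against AdCre spheres in the 2 tumour types. The change of Ccnd1 in PNET minus that in oligo-astrocytomas was -3.86 (limma, adjusted p = 0.0269), and that of Cdk4 was -0.90 (limma, adjusted p = 0.0126). Both comparisons use the same spheres, so these differences equal the direct comparison of the tumour types.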

How the results depend on the processing

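Counting each member, comparison and alternative once, 425 values kept their direction and their side of the threshold, 20 lost their call, 7 gained one and 20 changed sign; for the named pathway genes, whose alternatives were chosen after seeing the data, 688 values kept both and 139 lost their call. PNET against oligo-astrocytomas gave 1 member and 1182 transcript clusters with the AdCre-induced oligo-astrocytoma only, and between 1 and 3 members and 1772 and 2781 clusters with a sample left out; Cdk4 lost its call in the first (-0.71, adjusted p = 0.216), while Rb1 gained one after quantile normalization (0.87, adjusted p = 0.0252), median centring (0.79) or without graft 5 (0.88). Oligo-astrocytomas against AdCre spheres gave 2 members with compared groups only and 3433 clusters with the AdCre-induced tumour only, and between 3950 and 7234 clusters with a sample left out (1 member throughout). PNET against AdCre spheres gave 3 members after quantile normalization, and 2 members and 4295 clusters with the replicate block, in which Rb1 (0.99, adjusted p = 0.0712), Ccnd3 (-1.38, 0.182) and Cdk4 (-1.14, 0.0552) lost their calls; leaving out a sample gave between 2 and 5 members and between 5233 and 8088 clusters. AdCre against AdGFP spheres gave 0 clusters with quantile normalization, trend and robust eBayes, compared groups only, the replicate block and either sphere left out. AdCre-induced against grafted oligo-astrocytomas gave 0 clusters with compared groups only and between 28 and 75 with a graft left out. Signs that turned were all of changes that passed no test. For PNET minus oligo-astrocytomas these were Rbl2 (0.0827 quantile, 0.0420 centring, 0.13 AdCre-induced only, between -0.0940 and 0.0560 with a sample left out) and Cdk6 (-0.54 AdCre-induced only, between -0.28 and 0.48 with a sample left out). For oligo-astrocytomas minus AdCre spheres they were Rbl1 (0.47 quantile, 0.0282 centring, 0.0159 AdCre-induced only, between -0.18 and 0.15 with a sample left out), Rbl2 (0.12 quantile), Cdk4 (0.19 quantile) and Ccnd1 (1.29 AdCre-induced only). For PNET minus AdCre spheres, Rbl2 was 0.20 after quantile normalization. With a sample left out, Cdk6 was between -0.27 and 0.72 for AdCre minus AdGFP spheres, and Rbl1 between -0.21 and 0.29 for AdCre-induced minus grafted. The cause of these changes was not tested. Leaving out the AdGFP sphere, or the AdCre-induced tumour in the last comparison, gives no value, and no member had a second single-gene row to try.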
